A study of Mus musculus with 12 samples.

Results

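Fos, Fosb, Fosl2, Jun, Junb and Jund encode the AP-1 transcription factors of the Fos and Jun families. They were chosen by gene symbol, with earlier results of these data known. All 6 stood in each of the 4 deposited count tables, which share 14360 genes. The tables hold 12 RNA-seq libraries from the hippocampus of C57BL6/J mice, made during a study of learning and memory. Whole homogenates of day 6 came in the arms L and C with 3 libraries each. A synapse fraction was sampled on days 1, 6 and 20, with 1 library for L and 1 for C each time. In the file headers, the homogenate columns of arm L are named training, the day 6 synapse column of arm L is named learned, those of days 1 and 20 carry the letter T, and the arm C columns are named control or carry the letter C. The headers of all day 6 libraries end in the word Input, and those of synapse days 1 and 20 do not. The labels do not say what the training was, what the days count from or how the synapse fraction was made. They do not give the animals' ages, and give no genotype beyond the strain. They also do not state whether replicate libraries stem from different mice. Each p-value therefore reflects the scatter among the libraries at hand, and that scatter may be technical.

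AP-1 is a dimer that binds DNA and switches target genes on or off. Within these families, a Fos protein generally pairs with a Jun protein to bind, whereas Jun proteins can also pair among themselves. Fos, Fosb, Junb and to a lesser degree Jun are immediate early genes, whose transcription follows neuronal activity within minutes without new protein synthesis, and Fos is widely used to mark neurons that were recently active. Jund is expressed more steadily, and Fosl2 encodes Fra-2. The counts are per gene, so they do not separate full-length Fosb mRNA from the spliced form that encodes the long-lived protein ΔFosB.

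Library totals ran from 9.10e+06 to 1.595e+07 counts. Levels are given as CPM, the count scaled to the library total, and the limit for a gene without counts (3 counts) was 0.188 to 0.330 CPM. All markers of excitatory and inhibitory neurons, of the hippocampus and of dendritic mRNA had counts in every library. The dendritic mRNAs summed to 14195 to 16748 CPM in the synapse fraction of days 1 and 20 and to 11417 to 12755 CPM in that of day 6, against 10053 to 11855 CPM in the homogenates. The day 6 synapse libraries stood apart from the other 10. Their TMM scaling factors were 0.717 (L) and 0.660 (C), against 0.971 to 1.00 on days 1 and 20 and 1.10 to 1.18 in the homogenates. In their pair, 286 genes had at most 1 count in one library and at least 40 in the other, which was 2.446% of the genes with 40 or more in either, against 1 gene on day 1 and 1 gene on day 20. Oligodendrocyte markers summed to 3204 to 3771 CPM in them, against 10179 to 11894 CPM on days 1 and 20. Liver transcripts summed to 32.7 CPM in the L library and 167 CPM in the C library of the day 6 synapse fraction, to 2261 CPM in homogenate L replicate 1, and to at most 0.472 CPM in the other 9. Pituitary markers summed to 579 CPM in the day 20 synapse library of arm L and to at most 144 CPM in the other 11. The part of these differences in the results below was not tested. Tests over several synapse days are also given without the day 6 pair, whereas the comparisons of the day 6 synapse libraries themselves cannot be made without them.

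Fos (ENSMUSG00000021250) lies on mm10 chromosome 12 from 85473890 to 85477273 on the plus strand, and Fosb (ENSMUSG00000003545) on chromosome 7 from 19302696 to 19310051 on the minus strand. Jun (ENSMUSG00000052684) lies on chromosome 4 from 95049034 to 95052222, and Junb (ENSMUSG00000052837) on chromosome 8 from 84974484 to 84978718, both on the minus strand. The upstream sequence of these 4 genes is shown because they belong to the immediate early class and 3 of them fell together in the day 6 synapse libraries, as given below. Each line holds the 250 bases before the gene's RefSeq start (GRCm38.p6), read in the direction of transcription. Capitals mark TGACG, the core of a CREB site, and TGACATCA, an ATF and Jun type site.
Fos, chr12:85473640-85473889, plus strand: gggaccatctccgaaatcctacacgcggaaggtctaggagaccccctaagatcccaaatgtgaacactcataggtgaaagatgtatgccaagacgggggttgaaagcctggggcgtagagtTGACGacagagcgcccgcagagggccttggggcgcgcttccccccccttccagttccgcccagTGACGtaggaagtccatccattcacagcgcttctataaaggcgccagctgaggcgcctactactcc
Fosb, chr7:19310046-19310295, minus strand: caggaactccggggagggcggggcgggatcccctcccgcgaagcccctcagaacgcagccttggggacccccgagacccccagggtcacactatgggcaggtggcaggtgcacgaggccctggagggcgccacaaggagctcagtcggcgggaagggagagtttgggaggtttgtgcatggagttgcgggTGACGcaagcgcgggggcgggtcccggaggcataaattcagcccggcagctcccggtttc
Jun, chr4:95052223-95052472, minus strand: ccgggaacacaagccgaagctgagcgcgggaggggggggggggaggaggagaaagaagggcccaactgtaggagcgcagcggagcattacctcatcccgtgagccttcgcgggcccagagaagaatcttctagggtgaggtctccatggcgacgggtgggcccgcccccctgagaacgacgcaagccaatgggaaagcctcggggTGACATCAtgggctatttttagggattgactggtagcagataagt
Junb, chr8:84978749-84978998, minus strand: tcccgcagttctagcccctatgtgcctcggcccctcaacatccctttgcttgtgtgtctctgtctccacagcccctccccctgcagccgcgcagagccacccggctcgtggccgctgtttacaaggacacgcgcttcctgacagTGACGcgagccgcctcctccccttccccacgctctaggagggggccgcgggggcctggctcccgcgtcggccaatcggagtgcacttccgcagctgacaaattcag

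Both strands were searched, and the matches found do not overlap one another. Fos held TGACG with its first base at -129 and at -66 from the start, Fosb at -60 and Junb at -106, while the window of Jun held TGACATCA at -45. The motif TGACG was in 17.77% and TGACATCA in 2.928% of the 32851 RefSeq windows of this length. TATAAA was at -33 in Fos (12.37% of windows) and CCAAT at -65 in Jun and -36 in Junb (33.85% of windows). The AP-1 consensus TGANTCA, found in 6.749% of windows, was not in these letters in any of the 4 windows. The windows of Fosl2 and Jund were searched in the same way and held none of these motifs. The Jund window ends at 70697738, upstream of the GENCODE gene start at 70698949. The Fosl2 window begins at 32136222, inside the GENCODE gene, which starts at 32135801. For these genes the result therefore does not describe the bases before the GENCODE start. A match describes the letters and is not evidence that a factor binds there.

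Fosl2 (ENSMUSG00000029135) spans chromosome 5 from 32135801 to 32157842 on the plus strand, and Jund (ENSMUSG00000071076) spans chromosome 8 from 70698949 to 70700616 on the plus strand. Jun overlaps the antisense gene Junos, Junb overlaps Prdx2 on the opposite strand, and Jund overlaps Gm11175 on the opposite strand. The strand setting of the counting is not given in the sources used here, so reads of these overlapping pairs are uncertain. Fos, Fosb and Fosl2 overlap no annotated gene.

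Levels between the genes were compared only per kilobase of exon, as CPM per kb. The length is that of the merged exons of all annotated transcripts. It was 9680 bp for Fosl2 and 6243 bp for Fosb, whose longest transcripts have 6537 and 3782 bp. The order of the genes and the size of the shares below depend on that choice. Jun had the highest level in 10 of the 12 libraries. The exceptions were the day 1 synapse library of arm C, where Jund stood first, and the day 6 synapse library of arm C, where Fosl2 did. In the homogenates Jun ran from 20.2 to 26.5 CPM per kb in L and from 17.7 to 22.2 in C. Fosb had the lowest level in every library, with 1.18 to 1.51 CPM per kb in L homogenates and 0.632 to 0.781 in C homogenates. Fosl2, Junb, Jund and Fos lay between them, and their order changed from library to library. In the C homogenates Fosl2 averaged 8.15 ± 0.676 CPM per kb (SD, n = 3), and the mean of Fos was 4.61 ± 1.203 CPM per kb (SD, n = 3). The 3 Fos family genes together made up 28.8%, 32.2% and 32.2% of the length-scaled sum of all 6 genes in the L homogenates and 24.1%, 25.2% and 24.99% in the C homogenates, so the ranges of the arms did not overlap. In the synapse fraction this share was 22.5% (L) and 26.5% (C) on day 1, 32.8% (L) and 34.1% (C) on day 6, and 28.4% (L) and 24.3% (C) on day 20.

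**Figure D1:**
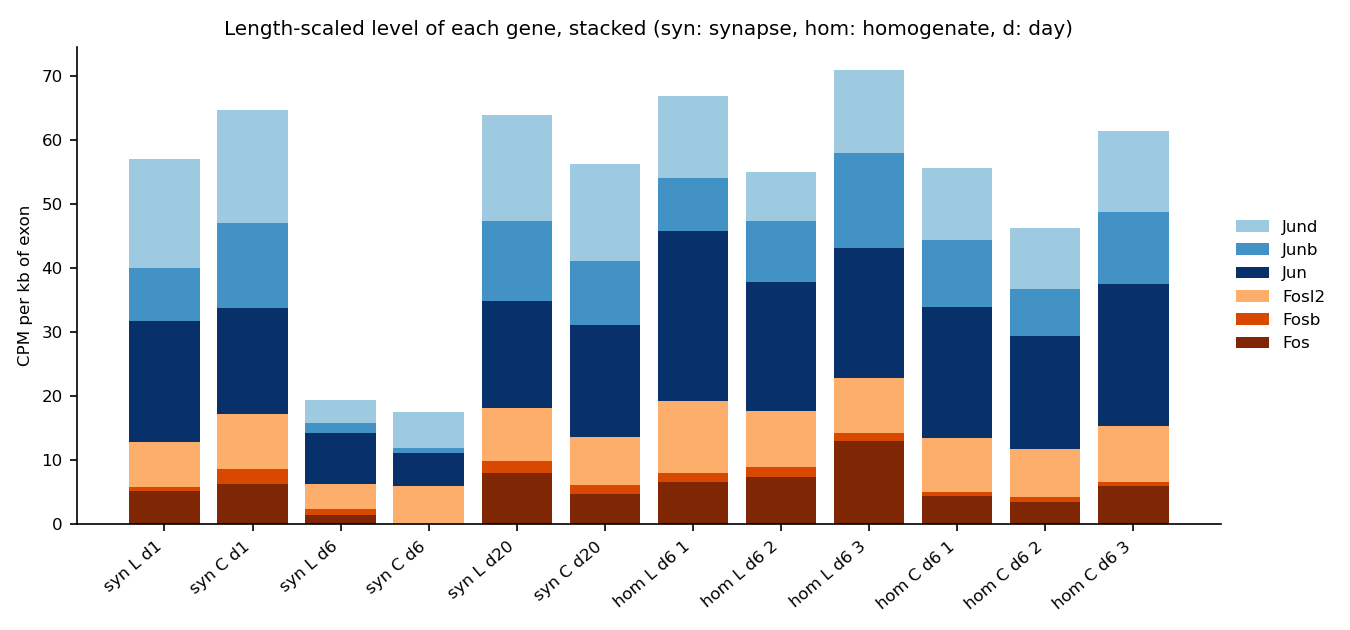
CPM per kb of exon of the 6 genes, stacked, in each of the 12 libraries (one bar per library; oranges, Fos family; blues, Jun family). The bars of the day 6 synapse libraries are the shortest, and nearly all of the Fos family part of its C library is Fosl2, at 99.4%.

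The question of the day 6 homogenates is whether arm L differs from arm C. In them Fos and Fosb, both induced by neuronal activity, stood 1.94-fold higher in L than in C, Fosl2 stood 1.18-fold higher, and Jun, Junb and Jund lay within the spread of the libraries. None of the 6 genes passed the test across all genes. That test had no replicate block, although the column names of same-numbered L and C libraries begin with the same number. With such a block neither Fos nor Fosb passed.

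Fos was at 15.4, 17.3 and 30.7 CPM in L replicates 1, 2 and 3, against 10.4, 8.25 and 13.9 CPM in C replicates 1, 2 and 3. Every L library was above every C library, and L replicate 3 stood well above the rest. The means were 21.1 ± 8.34 CPM in L and 10.8 ± 2.83 CPM in C (SD, n = 3 each). The log2 difference was 0.95 (SE 0.27), with an unadjusted p of 0.00545 and an adjusted p of 0.467 in edgeR's quasi-likelihood test. Without L replicate 3 it was 0.60 (adjusted p = 0.469 in edgeR).

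Fosb was at 9.22, 9.43 and 7.36 CPM in L, against 3.94, 4.88 and 4.70 CPM in C. The ranges of the arms did not overlap, and the libraries of each arm lay close together. The means were 8.67 ± 1.14 CPM in L and 4.51 ± 0.496 CPM in C (SD, n = 3 each). The log2 difference was 0.96 (SE 0.22, unadjusted p = 0.00156, adjusted p = 0.467 in edgeR). It stayed between 0.86 and 1.07 as each library was left out in turn.

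Fosl2, the most abundant of the Fos family per kilobase in most libraries, was at 109, 85.4 and 83.6 CPM in L, against 80.6, 71.7 and 84.4 CPM in C. The ranges overlapped in plain CPM, with L above C in 8 of 9 library comparisons, and did not after TMM scaling. Its log2 difference was 0.24 (SE 0.11, adjusted p = 0.573 in edgeR).

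Jun was at 84.6, 64.5 and 64.6 CPM in L, against 65.3, 56.5 and 70.8 CPM in C. Junb was at 19.1, 21.7 and 34.2 CPM in L, against 24.1, 16.8 and 25.9 CPM in C. Jund was at 21.3, 12.7 and 21.8 CPM in L, against 18.8, 16.1 and 21.1 CPM in C. The arms overlapped for all 3 Jun family genes. Junb was highest in L replicate 3, the library in which Fos was highest. Their log2 differences were 0.16 (SE 0.12) for Jun, 0.16 (SE 0.22) for Junb and -0.00 (SE 0.20) for Jund, with edgeR adjusted p of 0.715, 0.853 and 0.997.

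Across the 13647 genes tested in the homogenates, edgeR called 0 genes (0%) at an adjusted p under 0.05, and DESeq2 called 13, none of them among the 6. At an unadjusted p under 0.05, Fos and Fosb were higher, where 4.76% of all tested genes were higher and 4.15% lower (1217 genes in all). After TMM scaling all L libraries were above all C libraries for 3 of the 6 genes (Fos, Fosb and Fosl2), against 7.92% of all tested genes. For none were all L libraries below all C libraries, against 7.81% of all tested genes. Since the 6 genes were chosen with earlier results of these data known, these shares do not test the set. The median log2 difference of the 6 genes was 0.20, beside 0.00 over all genes tested. Homogenate L replicate 1 held liver transcripts, and without it the log2 difference of Fos was 1.14 and that of Fosb 0.92. Choroid plexus markers, 7 of 7 above 0 in L, summed to 3702, 3230 and 5856 CPM in L replicates 1, 2 and 3 and to 3027, 3947 and 2414 CPM in C replicates 1, 2 and 3, highest in the library with the most Fos. Oligodendrocyte markers were also above 0 in 7 of 7 cases, with sums of 2179 to 3530 CPM in L and 2125 to 2678 CPM in C that overlapped. Microglia markers were below 0 in 6 of 6 tested cases, and their sums of 182 to 209 CPM in L and 235 to 239 CPM in C did not overlap. Pituitary markers summed to 1.01 to 1.15 CPM in L and 2.84 to 79.8 CPM in C, again without overlap. The part of these markers in the result was not tested. In bulk tissue a change in the number of cells of a type cannot be told apart from a change in RNA per cell.

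**Figure D2:**
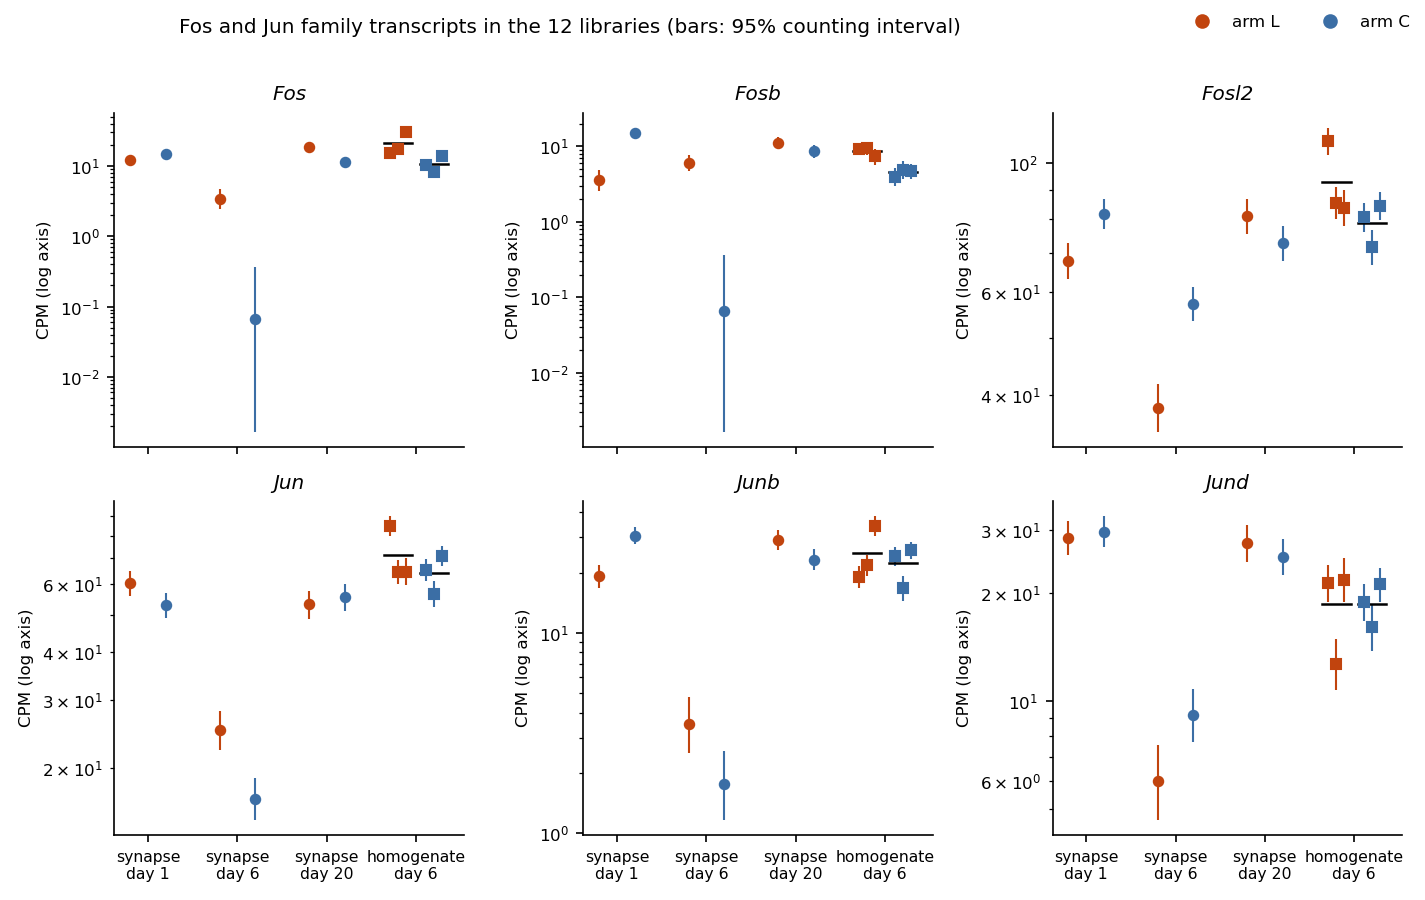
CPM (log axis) of each gene in the 12 libraries, by fraction and day, with arm L left of arm C (circles, synapse fraction; squares, homogenate; vertical bars, 95% counting interval; horizontal lines, homogenate means). The 3 L squares lie above the 3 C squares for Fos and Fosb, and the 2 day 6 synapse libraries are the lowest of the 12 for every gene but Fosb.

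In the synapse fraction each day had 1 library per arm, so the ratios below describe pairs of libraries, carry no test between arms, and have exact Clopper-Pearson 95% intervals that cover counting error only. On day 1 Fosb was lower in L by the most, Junb and Fosl2 were lower by less, and Jun and Jund were nearly level. On day 20 Fos, Junb and Fosl2 were higher in L. On day 6 Fos and Fosb were at 1 count each in the C library.

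On day 1 Fosb was at 3.53 CPM in the L library (41 counts) and 15.2 CPM in the C library (202 counts). The log2 ratio was -2.10 (unshrunk interval -2.67 to -1.66), and of the 10775 genes averaging 5 CPM or more in the pair, 0.0186% had a lower one. The 3.53 CPM of the L library was lower than in the other 3 synapse libraries of days 1 and 20, where Fosb ran from 8.59 to 15.2 CPM. Junb was at 19.2 CPM in L and 30.5 CPM in C, a log2 ratio of -0.71 (-0.96 to -0.48). Fosl2 was at 68.0 CPM in L and 81.9 CPM in C, at -0.32 (-0.45 to -0.18).

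The intervals of the other 3 genes held 0. Fos, at 12.3 CPM in L and 14.7 CPM in C, had a log2 ratio of -0.30 (-0.62 to 0.01). Jun, at 60.2 CPM in L and 52.9 CPM in C, stood at 0.14 (-0.01 to 0.29). Jund, at 28.4 CPM in L and 29.6 CPM in C, stood at -0.11 (-0.32 to 0.11). Of the 6 genes 1 (Fosb) was at least 2-fold lower, where 0.167% of all genes were and 0.139% were at least 2-fold higher (0.306% in either direction). On day 1 3 had an interval below 0, where 19% of all genes did and 13% had one above 0. In the same pair the 8 endothelial markers were all higher in L, with a median log2 ratio of 0.66 and sums of 490 CPM in L and 318 CPM in C, and the 7 dendritic mRNAs were all lower, with a median of -0.37. The 7 choroid plexus markers were all higher in L, with a median of 0.27, and pituitary markers summed to 71.1 CPM in L and 144 CPM in C. Their part in these ratios was not tested.

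On day 6 Fos had 40 counts in the L library (3.43 CPM) and 1 count in the C library (0.0655 CPM), a ratio of 49.4 with an interval of 8.37 to 1998. Fosb had 70 counts (5.99 CPM) in L and 1 count (0.0655 CPM) in C, a ratio of 86.4 with an interval of 15.0 to 3461. Both genes were at or under the limit that a count of 0 allows in the C library, and both fell below the mean of 5 CPM asked of genes in a pair. Of the 286 genes that were near 0 in one library of this pair and at 40 or more counts in the other, 109 were low in C and 177 were low in L.

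Junb was also below that mean on day 6, at 3.51 CPM in L (41 counts) and 1.77 CPM in C (27 counts), a log2 ratio of 0.85 (0.17 to 1.66). Jun was at 25.1 CPM in L and 16.7 CPM in C, at 0.50 (0.26 to 0.75). Fosl2 was lower in L, with 38.0 CPM in L and 57.2 CPM in C, at -0.67 (-0.84 to -0.51). Jund was at 5.99 CPM in L and 9.17 CPM in C, at -0.68 (-1.13 to -0.27). The wide spread of this pair bears on these values, since 11.6% of its 9894 genes were past 2-fold (6.63% higher and 4.92% lower), 33.6% had an interval above 0 and 36.1% had one below 0. None of the 3 genes that met the mean of 5 CPM was past 2-fold. Microglia markers were lower in L in 6 of 6 cases and choroid plexus markers in 6 of 7, with median log2 ratios of -0.41 and -0.36, and their part in these ratios was not tested.

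On day 20 Fos was at 18.9 CPM in L (200 counts) and 11.2 CPM in C (128 counts), a log2 ratio of 0.75 (0.43 to 1.09). Junb was at 29.1 CPM in L and 23.2 CPM in C, at 0.33 (0.09 to 0.57), and Fosl2 was at 80.9 CPM in L and 72.8 CPM in C, at 0.16 (0.02 to 0.30). These 3 intervals lay above 0, as did those of 13.9% of the 10820 genes of the pair, while 14% of all genes had one below 0. Fosb was at 11.04 CPM in L and 8.59 CPM in C, at 0.36 (-0.03 to 0.77). Jun was at 53.1 CPM in L and 55.4 CPM in C, at -0.05 (-0.22 to 0.11), and Jund was at 27.5 CPM in L and 25.3 CPM in C, at 0.13 (-0.11 to 0.37). None of the 6 was past 2-fold, where 0.176% of all genes were (0.0647% higher and 0.111% lower). In this pair choroid plexus markers were lower in L in 7 of 7 cases, with a median log2 ratio of -0.34. Pituitary markers summed to 579 CPM in L and 53.1 CPM in C, and endothelial markers were higher in L in 8 of 8 cases, with a median log2 ratio of 0.17. The part of these markers in the ratios was not tested.

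**Figure D3:**
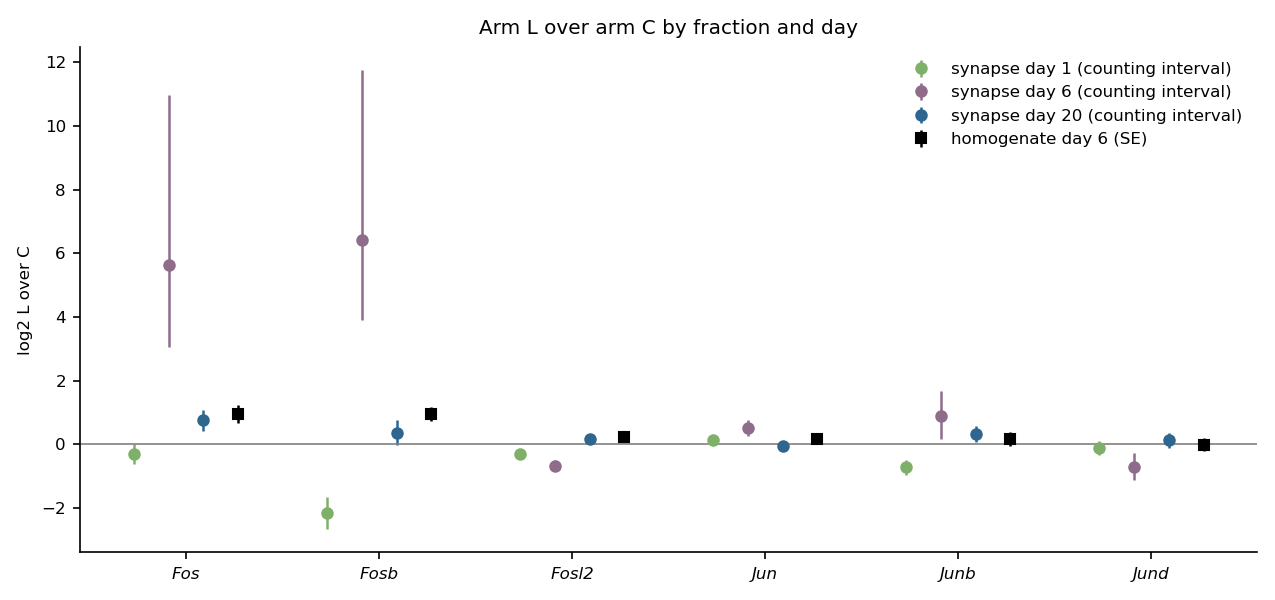
Log2 ratio of arm L over arm C for each gene: synapse pairs of days 1, 6 and 20 without a prior count and with 95% counting intervals (circles), and the homogenate log2 difference with its SE (squares). Fosb lies below 0 on day 1 and far above 0 on day 6, where its C library held 1 count.

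Over the 3 synapse days, with day as a block, none of the 6 genes passed the test of arm L against arm C in edgeR. The log2 differences were 1.10 (SE 0.82) for Fos, 0.60 (SE 1.36) for Fosb, -0.28 (SE 0.17) for Fosl2, 0.18 (SE 0.14) for Jun, 0.09 (SE 0.33) for Junb and -0.21 (SE 0.23) for Jund, with adjusted p from 0.905 to 0.959. The test had 2 residual degrees of freedom, and of 13071 genes edgeR called 0 (0%), with 0.367% higher and 1.36% lower at an unadjusted p under 0.05 (226 genes in all), and DESeq2 called 0. Without the day 6 pair the log2 differences were 0.23 for Fos, -0.80 for Fosb, -0.076 for Fosl2, 0.049 for Jun, -0.19 for Junb and 0.013 for Jund, none of which passed in edgeR.

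Whether the arm difference itself differed between the synapse fraction and the homogenate was tested in a fit of all 12 libraries. The difference of the differences was -0.52 (SE 0.21, unadjusted p = 0.0297, adjusted p = 0.823 in edgeR) for Fosl2, and the other 5 genes had adjusted p of 0.903 or more. Without the day 6 synapse libraries it was -0.72 for Fos, -1.79 for Fosb, -0.31 for Fosl2, -0.11 for Jun, -0.35 for Junb and 0.024 for Jund, with edgeR adjusted p of 0.878 or more. Over all 13766 genes edgeR called 0 (0%), with 2.41% higher and 2.77% lower at an unadjusted p under 0.05 (713 genes in all), and DESeq2 called 0. Over the 8 day 6 libraries alone the difference was 4.499 for Fos (adjusted p = 0.0216), 5.31 for Fosb (adjusted p = 0.00275) and -0.96 for Fosl2 (adjusted p = 0.0220), where edgeR called 2527 genes. That fit rests on 1 synapse library per arm, assumed to vary like the homogenates, and on the 1 count of Fos and of Fosb.

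Between the days and fractions, the AP-1 genes differed most in the comparisons that hold the day 6 synapse libraries. Fos, Junb and Jun fell in these libraries relative to the day 6 homogenates and relative to the synapse fraction of days 1 and 20, and Jund fell relative to synapse days 1 and 20. Fosl2 and Fosb did not pass in either comparison. Each synapse day and the homogenates were deposited in tables of their own. The comparison with the homogenates holds the day fixed, and that with synapse days 1 and 20 holds the fraction fixed. In each, the table cannot be told apart from what differs. In the comparison with synapse days 1 and 20, the header word Input differs as well. The comparisons share libraries with each other. Each gene's spread was estimated once over all 12 libraries, so the 2 day 6 synapse libraries were assumed to vary like the rest. The log2 ratios of L over C had a median absolute deviation of 0.466 in the day 6 pair, against 0.179 on day 1 and 0.177 on day 20. The SE and p-values of the comparisons with day 6 may therefore be too small.

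Junb was at 3.51 CPM (L) and 1.77 CPM (C) in the day 6 synapse fraction, against 19.2 to 30.5 CPM in that of days 1 and 20 and 16.8 to 34.2 CPM in the homogenates. Both day 6 synapse libraries lay below every other library. The log2 difference was -2.79 (SE 0.35, edgeR adjusted p = 2.13e-05) against synapse days 1 and 20 and -2.45 (SE 0.34, edgeR adjusted p = 2.76e-05) against the homogenates.

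Fos was at 3.43 CPM (L) and 0.0655 CPM (C), against 11.2 to 18.9 CPM in the synapse fraction of days 1 and 20 and 8.25 to 30.7 CPM in the homogenates. Again both were below every other library, and they lay far from each other. The log2 difference was -2.89 (SE 0.67, edgeR adjusted p = 0.00333) against synapse days 1 and 20, and -2.73 (SE 0.64, edgeR adjusted p = 0.00251) against the homogenates. Without the C library these were -1.93 and -1.81 (edgeR adjusted p = 0.0115 and 0.0106), and without the L library they were -6.72 and -6.60.

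Jun was at 25.1 CPM (L) and 16.7 CPM (C), against 52.9 to 60.2 CPM in the synapse fraction of days 1 and 20 and 56.5 to 84.6 CPM in the homogenates, with no overlap. The log2 difference was -0.90 (SE 0.15, edgeR adjusted p = 0.000216) against synapse days 1 and 20 and -0.98 (SE 0.14, edgeR adjusted p = 4.11e-05) against the homogenates.

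Jund was at 5.99 CPM (L) and 9.17 CPM (C), against 25.3 to 29.6 CPM in the synapse fraction of days 1 and 20 and 12.7 to 21.8 CPM in the homogenates. The log2 difference was -1.33 (SE 0.25, edgeR adjusted p = 0.000602) against synapse days 1 and 20. Against the homogenates it was -0.54 (SE 0.23, edgeR adjusted p = 0.0555), although the plain CPM ranges did not overlap. That call passed without the day 6 synapse C library (-0.96, edgeR adjusted p = 0.00786), without homogenate L replicate 2 (-0.63, edgeR adjusted p = 0.0221) and without homogenate C replicate 2 (-0.61, edgeR adjusted p = 0.0459).

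Fosb, at 5.99 CPM (L) and 0.0655 CPM (C), had log2 differences of -1.64 (SE 0.94, edgeR adjusted p = 0.180) against synapse days 1 and 20 and -0.69 (SE 0.85, edgeR adjusted p = 0.508) against the homogenates. Its C library was the lowest of all 12, whereas its L library lay inside the range of 3.53 to 15.2 CPM of days 1 and 20. Without the L library both comparisons passed, with log2 differences of -6.38 and -5.56 (edgeR adjusted p = 0.00514 and 0.00978). The comparison with synapse days 1 and 20 also passed without the day 1 L library (-2.42, edgeR adjusted p = 0.0306), and that with the homogenates over the 8 day 6 libraries alone (-2.48, edgeR adjusted p = 0.000236). Fosl2, at 38.0 CPM (L) and 57.2 CPM (C), had log2 differences of -0.13 (SE 0.19, edgeR adjusted p = 0.611) against synapse days 1 and 20 and -0.10 (SE 0.18, edgeR adjusted p = 0.662) against the homogenates. Without the C library both passed, at -0.59 and -0.55 (edgeR adjusted p = 0.0174 and 0.0159).

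These counts stand on a high background. Against synapse days 1 and 20, edgeR called 4 of the 6 genes lower (Fos, Jun, Junb and Jund), where it called 22.5% of 13766 genes lower, 22.6% higher and 45.1% in either direction. Against the homogenates it called 3 of the 6 lower (Fos, Jun and Junb), where it called 31.3% of all genes lower, 28% higher and 59.3% in either direction. By size, 1.26% of all tested genes fell further than Fos and 1.41% further than Junb against synapse days 1 and 20, while 14.9% did for Jun and 7.72% for Jund.

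The scaling bears on these values. Without TMM scaling, the median of all genes moved to -0.56 against synapse days 1 and 20 and to -0.87 against the homogenates, from -0.03 and -0.13 with it. Fosl2 then passed in both comparisons (-0.67 with adjusted p = 0.00644, and -0.85 with adjusted p = 0.000692 in edgeR), and Jund passed against the homogenates (-1.30, edgeR adjusted p = 0.000306). The split of calls was 1694 higher and 6534 lower against synapse days 1 and 20 without TMM scaling, and 3111 and 3104 with it. Against the homogenates it was 2394 higher and 7661 lower without, and 3856 and 4311 with.

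**Figure D4:**
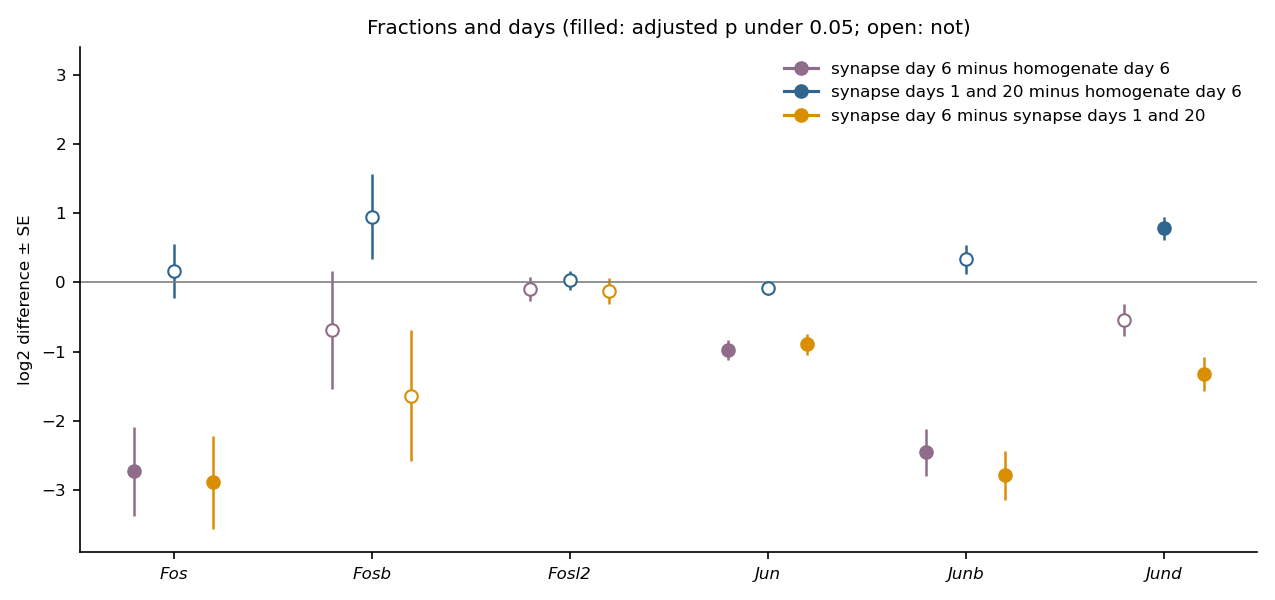
Log2 difference with its SE (vertical axis) of each gene in 3 comparisons of 12 libraries; filled points had an edgeR adjusted p under 0.05. Fos, Jun, Junb and Jund lie below 0 in the comparison of synapse day 6 with synapse days 1 and 20, and Jund lies above 0 where synapse days 1 and 20 are compared with the homogenates.

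The difference between synapse day 6 and synapse days 1 and 20 also varied with the GC content of the transcripts. Over deciles of GC content among the 13670 tested genes with a value (99.3%), the median log2 difference was 0.28 in the lowest decile and -0.65 in the highest. Junb (62.6% GC) and Jund (67.2% GC) were in the highest decile, Jun (55.5%) and Fosb (56.0%) in the ninth, and Fos (51.9%) and Fosl2 (53.1%) in the seventh. Within their own deciles, 1.39% of genes fell further than Fos, 3.73% further than Junb, 8.34% further than Fosb, 22.2% further than Jund, 26.9% further than Jun and 51.4% further than Fosl2. Endothelial markers moved in the same direction, with 7 of 8 called lower and sums of 109 to 138 CPM in the day 6 synapse libraries against 318 to 490 CPM on days 1 and 20. Microglia markers moved the other way, with 6 of 6 tested called higher. The part of GC content and of these cell markers in the values of the AP-1 genes was not tested.

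**Figure D5:**
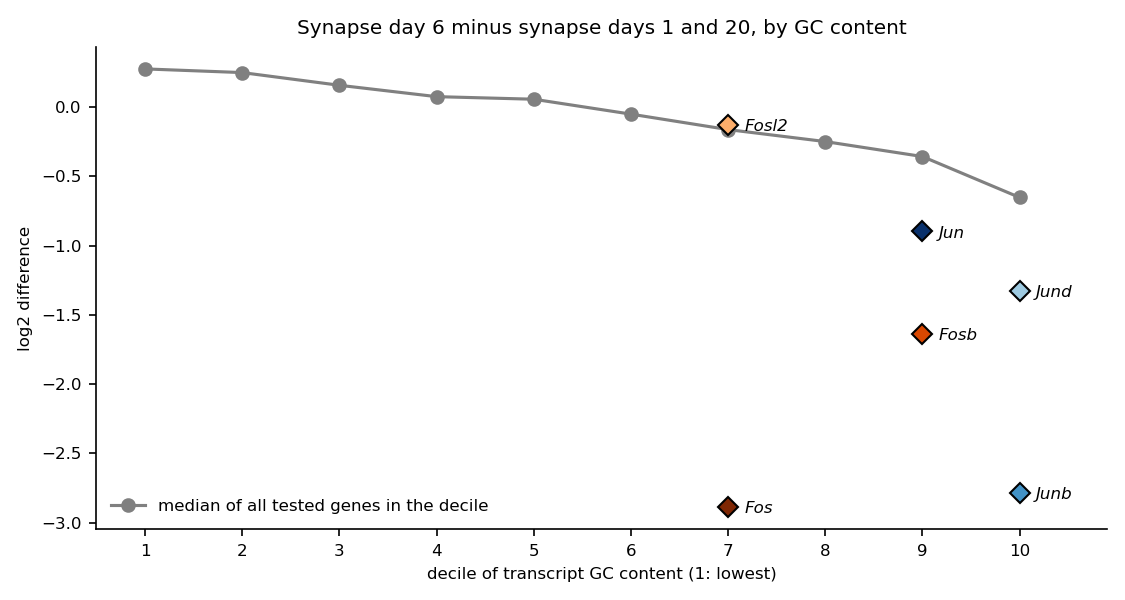
Log2 difference of synapse day 6 minus synapse days 1 and 20 (vertical axis) against the decile of transcript GC content (horizontal axis): grey, median of all tested genes in the decile; diamonds, the 6 genes. Fosl2 lies at the median of its decile, Jun and Jund lie below theirs, and Fos and Junb lie furthest below.

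In the comparison of synapse days 1 and 20 with the day 6 homogenates, Jund alone of the 6 genes passed the test. Here fraction, day, table and the header word Input cannot be told apart. Jund was at 25.3 to 29.6 CPM in these 4 synapse libraries, against 12.7 to 21.8 CPM in the 6 homogenates, with no overlap. Its log2 difference was 0.78 (SE 0.17, edgeR adjusted p = 0.00161), and edgeR called 24.2% of 13766 genes higher in this comparison, 21.4% lower and 45.6% in either direction. The median of all genes in its GC decile was 0.57 in this comparison. Some cell markers moved in the same direction. Oligodendrocyte markers summed to 10179 to 11894 CPM in these synapse libraries against 2125 to 3530 CPM in the homogenates. Astrocyte markers summed to 16017 to 16440 CPM against 8820 to 10363 CPM, and excitatory neuron markers to 5138 to 6298 CPM against 3902 to 4996 CPM. Microglia markers summed to 508 to 611 CPM against 182 to 239 CPM, and choroid plexus markers to 8348 to 10181 CPM against 2414 to 5856 CPM. Other markers did not rise in this way. Hippocampus markers summed to 1713 to 1860 CPM against 1804 to 2712 CPM, and inhibitory neuron markers to 573 to 604 CPM against 580 to 799 CPM. The part of GC content and of these markers in the value of Jund was not tested. Without the day 6 synapse libraries the difference of Jund was 0.76 (edgeR adjusted p = 0.00022).

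The other 5 genes did not pass between synapse days 1 and 20 and the homogenates. Fosb, at 3.53 to 15.2 CPM against 3.94 to 9.43 CPM, stood at 0.95 on the log2 scale (SE 0.61, edgeR adjusted p = 0.234), at 1.53 without the day 1 L library (edgeR adjusted p = 0.0365) and -0.20 without the day 1 C library. Junb stood at 0.33 (SE 0.21), Fos at 0.16 (SE 0.39), Fosl2 at 0.03 (SE 0.14) and Jun at -0.08 (SE 0.10). Without TMM scaling Fos was at -0.05 and Fosl2 at -0.18, while the median of all genes moved to -0.24, from -0.03 with it. The split of calls was 2375 higher and 4633 lower without TMM scaling, and 3332 and 2946 with it. Between synapse day 20 and synapse day 1 the log2 differences ran from -0.21 (Fosb) to 0.04 (Junb), and of 13766 genes edgeR called 0 (0%), with 34 at an unadjusted p under 0.05, and DESeq2 called 0.

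Genes around AP-1 were followed in 6 lists. In the homogenates edgeR called none of their members in either direction, as it called none of all genes, and the following counts are of signs and of unadjusted p, beside 4.76% of all tested genes higher and 4.15% lower at an unadjusted p under 0.05. Of the other basic leucine zipper genes that can pair with AP-1 proteins, 7 of 16 were tested and 4 were above 0. The small Maf genes Mafk (log2 difference 0.55, SE 0.19) and Mafg (0.45, SE 0.10) and the AP-1 repressor Jdp2 (0.50, SE 0.13) had an unadjusted p under 0.05 and edgeR adjusted p of 0.515, 0.467 and 0.467. Jdp2 averaged 18.3 ± 0.544 CPM in L and 13.0 ± 0.760 CPM in C (SD, n = 3 each), and Mafg averaged 54.0 ± 4.49 CPM in L and 39.9 ± 0.488 CPM in C (SD, n = 3 each).

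Of 17 kinases upstream of Fos and Jun, 13 were below 0 in L, with a median log2 difference of -0.11, beside 0.00 over all genes. Rps6ka5, which encodes the nuclear kinase MSK1, was at -0.27 (SE 0.09, edgeR adjusted p = 0.515), and Rps6ka1 and Map2k5 were at -0.22 and -0.21. Of 17 tested transcription factors and coactivators of the Fos and Jun promoters, 14 were above 0, with a median of 0.12. Among them Mkl1, a coactivator of serum response factor, was at 0.30 (SE 0.09, edgeR adjusted p = 0.467), Crtc2, a coactivator of CREB, at 0.29 and Crem at -0.37. Of 11 proteins that bind AU-rich elements in mRNA, 6 were above 0 and the median was 0.03. Zfp36, which promotes decay of such mRNAs, averaged 4.68 ± 3.89 CPM in L and 2.60 ± 1.04 CPM in C (SD, n = 3 each), and Elavl4 and Elavl2 were at -0.26 and -0.23.

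Of 15 AP-1 target genes 11 were tested in the homogenates and 7 were below 0, with a median of -0.11. Pdyn, which encodes prodynorphin, was at -0.40 (SE 0.21, edgeR adjusted p = 0.594), Mmp3 at -1.65 (SE 1.66) and Ezh2 at 0.25 (SE 0.14). Of 38 other immediate early genes, 29 were above 0 in L, with a median of 0.19, and 11 had an unadjusted p under 0.05, all higher, where 4.76% of all tested genes were higher and 4.15% lower. Egr2, a zinc finger transcription factor, averaged 9.20 ± 2.57 CPM in L and 3.64 ± 1.55 CPM in C (SD, n = 3 each), with L over C at 1.33 on the log2 scale (SE 0.34, edgeR adjusted p = 0.467). Egr4 was at 0.78 (SE 0.34) and Inhba, which encodes an activin subunit, at 0.69 (SE 0.25). The 38 genes do not include the 6 AP-1 genes, and the list was written with the homogenate results known.

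In the synapse pairs, too, the other immediate early genes were followed. On day 1, 30 of 31 that averaged 5 CPM or more were lower in L, with a median log2 ratio of -0.21, beside -0.01 over all genes of the pair. On day 20, 24 of 32 were higher in L, with a median of 0.19, beside 0.00 over all genes. On day 6, 14 of 23 were higher in L, with a median of 0.07. Differences between the days were not tested, since each rests on 1 pair of libraries. In the day 1 pair, dendritic mRNAs summed to 14195 CPM in L and 16748 CPM in C. Excitatory neuron markers summed to 5138 CPM in L and 6298 CPM in C. Inhibitory neuron markers (597 CPM in each) and hippocampus markers (1734 CPM in L, 1713 CPM in C) were nearly level. The part of these markers in the ratios was not tested.

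Relative to synapse days 1 and 20, the day 6 synapse libraries had 20 of 36 other immediate early genes called lower and 3 called higher in edgeR, beside 22.5% and 22.6% of all genes, with a median log2 difference of -0.71. Egr4 fell by 3.56 (SE 0.83, edgeR adjusted p = 0.00314) and Egr2 fell by 2.64 (SE 0.88, edgeR adjusted p = 0.0249), whereas Inhba, at 0.60 (SE 0.29), did not pass. Of the 17 kinases 10 were called lower and 0 higher. Of the transcription factors and coactivators 11 of 18 were called lower and 1 higher, and Mkl1 fell by 1.95 (SE 0.39, edgeR adjusted p = 0.00167). The AU-rich element binding proteins had 5 of 11 called lower and 3 higher. Of the AP-1 target genes 6 of 9 were called higher and 2 lower, and Pdyn rose by 0.79 on the log2 scale (SE 0.23, edgeR adjusted p = 0.0117). Of the other leucine zipper genes 1 of 8 was called lower and 1 higher.

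Likeness of pattern was measured as Pearson's r of log2 TMM-scaled CPM over the 12 libraries, among the 10890 genes that averaged 5 CPM or more. The libraries share depth and the day 6 synapse split, so r is a description and was also taken without those 2 libraries (n = 10). The genes most like Fos were Coro7 (r = 0.977), Rpap1 (0.971) and Zfp276 (0.969), with 0.778, 0.762 and 0.450 without the day 6 synapse libraries. For Fosb they were Tbrg4, Uhrf1bp1 and Rptor (0.966 to 0.947), with 0.816, 0.741 and 0.713. For Fosl2 they were Dpf1, Dusp18 and Rbm8a (0.882 to 0.867), with 0.870, 0.712 and 0.718.

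Among the Jun family, the genes most like Jun were Acbd6, Cc2d1a and 1700030J22Rik (r from 0.986 to 0.973), with 0.886, 0.936 and 0.872 over 10 libraries. For Junb they were 2310036O22Rik, Edc4 and Pcbp1 (0.975 to 0.974), with 0.744, 0.732 and 0.802. Jund was most like Ap1b1, Apbb1 and Rusc2 (0.983 to 0.976), and over 10 libraries r was 0.978, 0.988 and 0.970. Between the AP-1 genes, Fos and Junb had r = 0.902 over 12 libraries and 0.698 over 10. Fos and Jun had 0.873 over 12 libraries and 0.032 over 10, and Jun and Junb had 0.864 and -0.41. Fosb and Fosl2 had -0.13 over 12 libraries and 0.720 over 10.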

How the data were processed

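Hippocampal RNA was counted per gene in 12 libraries. The authors deposited integer counts, not normalized, in 4 tables (1 per synapse day and 1 for the homogenates). Per the labels' protocols, ribosomal RNA was removed and directional dUTP libraries were made with random primers. The genome was mm10, and the tools included HTSeq 0.9.1, cutadapt 1.9.3, edgeR and HISAT2 2.0.4, per the submitters' processing notes. Which annotation release and strand setting were used is not given in the sources used here. Libraries were grouped by their titles, and columns were matched to titles by fraction, day and arm.

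From the counts, CPM, edgeR 4.0.16 quasi-likelihood tests (filterByExpr, TMM, robust fit, R 4.3.3; Benjamini-Hochberg adjusted p under 0.05 over all genes tested) and DESeq2 1.42.0 as an alternative were computed. Each SE beside an edgeR log2 difference is that difference's absolute value divided by the square root of the test's F statistic. The edgeR fits were also run on simulated counts with the same spread for every gene. That run checks the code and not the spread of these libraries. Homogenate arms were compared over 6 libraries, synapse arms over 6 with day as a block, and fractions and days over all 12 with arm as a term. Pair ratios were taken after TMM scaling, with a prior count of 2, for genes averaging 5 CPM or more. Intervals are exact Clopper-Pearson at 95%. Reads carry no molecular identifiers, so intervals and floors cover counting error only. Pairs of homogenate libraries of an arm differed by more than sampling noise (chi-square per degree of freedom from 3.78 to 22.0). Coordinates and exon lengths are from GENCODE M21 (mm10), matched by gene identifier for 6 of 6 genes. Upstream sequences are from RefSeq (GRCm38.p6), where 6 of 6 symbols matched. The RefSeq starts of Fosb, Fosl2, Junb and Jund differ from the GENCODE gene boundaries, and that of Jund lies upstream of its GENCODE gene.

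The genes named beside the 6 are the 3 most correlated with each, and in each list the up to 3 with the largest homogenate difference at a mean of at least 2 CPM. The members and the gene lists were chosen with earlier results of these data known. Alternatives were other scalings, DESeq2, no filter, a replicate or day block, other CPM minimums and prior counts, and leaving out libraries or days.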

Additional observations from a re-analysis of the deposited data

Results flagged for a closer look

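Fosb, Fosl2 and Junb had log2 ratios of L over C in the synapse fraction that pointed in opposite directions on different days, with intervals apart from 0. Fosb stood at -2.10 on day 1 and 4.79 on day 6 with the prior count of 2. Fosl2 stood at -0.32 on day 1, -0.67 on day 6 and 0.16 on day 20. Junb stood at -0.71 on day 1, 0.85 on day 6 and 0.33 on day 20. Each day had 1 library per arm, so the difference between the days was not tested. The day 6 values of Fosb and Junb rest on 1 and 27 counts in the C library.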

How the results depend on the processing

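Of 228 values of the 6 genes under alternatives other than leaving out 1 library, 206 kept their direction and their side of the threshold, 17 reversed and 5 kept their direction and newly passed; of 432 with 1 library left out, 373 kept both, 50 reversed and 9 newly passed. The reversed values did not pass the test before or after, except Fos and Fosb in the difference of arm differences, which passed over the 8 day 6 libraries (edgeR adjusted p = 0.0216 and 0.00275). The cause of the reversals was not tested. Alternatives chosen after seeing the data were no TMM scaling, leaving out a day or the day 6 synapse libraries, and the 8 day 6 libraries. For the synapse arms over the days, Fosb was -0.087 and Junb -0.10 without a day block, Fosb -0.80, Junb -0.19 and Jund 0.013 without day 6, and Junb -0.0021 without day 20. Without TMM scaling, Fos was -0.055 and Fosl2 -0.18 for synapse days 1 and 20 against homogenates, and Fos was 0.00050 for day 20 against day 1, where it was 0.047 without the day 6 synapse libraries. For the difference of arm differences, Fos was 0.41 in DESeq2, 0.012 without TMM scaling and 4.499 over the 8 day 6 libraries, where Fosb was 5.31 and Junb 0.69, while Jun was -0.11 and Jund 0.024 without the day 6 synapse libraries. With 1 library left out, homogenate arm differences ran from -0.11 to 0.33 for Junb and -0.12 to 0.21 for Jund. Synapse arm differences ran from -0.81 to 2.53 for Fosb, -0.19 to 0.57 for Junb and -0.41 to 0.013 for Jund. Synapse day 6 against homogenates ran from -5.56 to 0.44 for Fosb and -0.55 to 0.27 for Fosl2, and against synapse days 1 and 20 from -0.59 to 0.23 for Fosl2. Synapse days 1 and 20 against homogenates ran from -0.28 to 0.49 for Fos, -0.20 to 1.53 for Fosb and -0.059 to 0.13 for Fosl2. Day 20 against day 1 ran from -0.65 to 0.88 for Fos, -1.26 to 2.20 for Fosb, -0.14 to 0.21 for Fosl2, -0.20 to 0.064 for Jun and -0.41 to 0.60 for Junb. The difference of arm differences ran from -0.72 to 0.84 for Fos, -1.79 to 1.19 for Fosb, -0.11 to 0.16 for Jun, -0.35 to 0.37 for Junb and -0.39 to 0.028 for Jund. Genes called between homogenate arms numbered 13 in DESeq2, 1 with a replicate block (Fos adjusted p = 0.247 and Fosb 0.279 in edgeR) and 0 to 3 with 1 library left out. Deviations of same-numbered L and C homogenate libraries correlated at 0.009, 0.25 and 0.18 for replicates 1, 2 and 3. Between L and C homogenate libraries of different numbers the correlations ran from -0.26 to 0.11. The column names of same-numbered L and C homogenate libraries also begin with the same number. The main homogenate test had no replicate block, and whether the numbers mark pairs was not tested. Genes called between synapse arms numbered 7 without day 1, 1 without day 6 and 1 to 4 with 1 library left out, and for the difference of arm differences 2527 over the 8 day 6 libraries and 0 to 1 with 1 left out. Genes past 2-fold in a pair numbered 244 on day 1, 2807 on day 6 and 227 on day 20 at a mean of at least 1 CPM, and 14, 515 and 5 at 10 CPM. With 1 synapse library per arm and day, and 1 count of Fos and of Fosb in the day 6 C library, the arm ratios of the synapse fraction within a day have no replicate check.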
